A study of Drosophila melanogaster with 6 samples.

Results

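The 10 genes described here encode the stress-activated JNK and p38 kinase pathways of *Drosophila melanogaster* and their best known target genes. They were taken by name, from the ligand to the targets: *egr*, *slpr*, *hep*, *bsk*, *p38a*, *Jra*, *kay*, *Ets21C*, *puc* and *Gadd45*. All 10 were found by identifier among the 17617 genes of the deposited tables, and all 10 could be tested.

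Gene expression was measured by 3′ mRNA sequencing in dissected adult hindguts, with 3 libraries in each of 2 genotypes. Control flies carried byn-G4, tub-G80ts and U-gfp, in which Gal4 under the control of *brachyenteron* (*byn*) drives GFP in hindgut enterocytes and the temperature-sensitive repressor Gal80 keeps it off at low temperature. RasV12 flies carried the same 3 elements and U-RasV12, which makes a Ras protein locked in its active state. Both genotypes were reared at 18°C and moved as adults to 29°C for 7 days, so the heat and the GFP are common to both and U-RasV12 is the labelled difference. Control flies of the study came from crosses to the reference line w1118, so other differences between the fly lines cannot be told apart from it. Each library pooled many hindguts, and the labels describe the material as enterocytes with muscle. Nothing in the labels says that the libraries of a genotype came from separate cultures, so the p-values measure the spread between these libraries.

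JNK signalling in the fly starts with Eiger, a TNF-like ligand that binds the receptors Grindelwald and Wengen. It passes through a chain of kinases to Basket, the fly JNK, which phosphorylates the AP-1 factor made of Jra (Jun) and Kayak (Fos). AP-1 then turns on genes that include *puc*, a phosphatase that shuts Basket off again. The p38 kinases form a parallel branch that responds to infection, heat and oxidants. In the fly gut both branches are known for their part in the response to damage, in regeneration and in the shedding of cells.

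Values are given as normalized counts, whose totals ranged from 932389 to 1031380 per library. In control replicates 1 and 3, 17 and 15 of the whole numbers from 1 to 60 do not occur, since the authors multiplied the reads by a factor, and low values there are coarse. *Ras85D*, the gene of the transgene, ranged from 48 to 55 in control and from 85 to 105 in RasV12 hindguts (0.85 on the log2 scale, limma's adjusted p = 0.0455), but without any 1 of the 6 libraries it did not pass, at adjusted p from 0.0585 to 0.148. Whether transcripts of the transgene were counted at *Ras85D* in these 3′ libraries was not tested, so these values need not give its level. Of 8 hindgut markers 4 could be tested and were present in every library, and 3 of them fell, *byn*, *fkh* and *otp*, with *byn* going from 299, 283 and 450 to 60, 144 and 97 (limma's adjusted p = 0.00153). The fourth, *cad*, had 15, 12, 7 against 11, 17, 4 (limma's adjusted p = 0.852). The others did not exceed 6, with *dve* at 0 in control and at 4, 3, 3 in RasV12 libraries and *en* at 0 throughout, and the summed level of the 8 was 712 to 991 in control and 241 to 345 in RasV12 hindguts. Visceral muscle was present as well: 9 of its 10 markers fell (6 to 9 with a library left out, 5 without a variance trend), and their summed level went from between 9838 and 11144 in control to between 4471 and 5219 in RasV12 hindguts. In such bulk samples fewer cells of a type and less RNA per cell cannot be told apart. Of 7 hemocyte markers, *NimC1*, *He* and *eater* were listed at 0 in all libraries and *Hml* did not exceed 1. The summed level was 41 to 92 in control and 81 to 102 in RasV12 hindguts, most of it *crq* (59, 36, 83 against 100, 96, 79, limma's adjusted p = 0.175). Of 6 enteroendocrine markers 1 rose, *NPF* (0, 1, 1 against 605, 430, 518), which brought the summed level from between 5 and 44 to between 447 and 635. *AstA* (35, 36, 3 against 18, 11, 4) and *Tk* (8, 4, 1 against 11, 5, 1) were not called, and the rest did not exceed 3. Of 4 tracheal markers 1 rose, *btl* (14, 20, 9 against 43, 54, 59), with sums of 16 to 39 and 47 to 72. The higher sum was that of *btl*. *serp* (11, 4, 0 against 0, 1, 1), *trh* (0, 3, 3 against 0, 0, 0) and *verm* (10, 12, 4 against 4, 7, 12) did not rise. Of 5 ovary and egg markers found in the tables, *Yp1* and *Yp2* fell (limma's adjusted p = 0.0128 and 0.0219), and the sum was 3440 to 8677 in control and 1725 to 3012 in RasV12 hindguts. Nearly all of it was these yolk genes, while *osk* did not exceed 21, *Vm26Aa* 15 and *Cp15* 6, so the sum need not measure ovary tissue. The 6 fat body markers summed to 129 to 356 in control and 52 to 210 in RasV12 hindguts. Most of that was *apolpp* (194, 325, 111 against 92, 51, 205, limma's adjusted p = 0.185). *Apoltp* had 8, 26, 17 against 6, 1, 4, lower without overlap (limma's adjusted p = 0.0574), and *Lsp2* had 4, 5, 1 against 1, 0, 1. The 6 midgut enzyme markers summed to 13 to 127 in control and 100 to 201 in RasV12 hindguts. Nearly all of that was *alphaTry* (125, 82, 13 against 100, 200, 108, limma's adjusted p = 0.171), and no other exceeded 2. The 5 neuron markers summed to 21 to 55 and 20 to 59. The part of all these cells in the genes described next was not tested.

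The genotypes were compared by limma after a log2(value + 1) transformation, which shrinks the differences of genes at low values. A gene passed the test at a Benjamini-Hochberg adjusted p under 0.05 over all 7155 genes tested. *Jra*, *Ets21C* and *p38a* rose in RasV12 hindguts, which is 3 of the 10 genes, where 9.04% of all genes tested were called higher. None of the 10 was called lower by limma, where 7.7% of all genes were. At an unadjusted p under 0.05, 3 of the 10 were higher and 2, *hep* and *Gadd45*, were lower, where 16% and 14% of all genes tested were, and limma-voom likewise called 3 higher and 0 lower. The median log2 fold change of the 10 genes was 0.23, beside 0.02 over all genes tested. Setting the genes of near-empty control libraries, *egr* and *Ets21C*, to their lower bound could not move it, since both stayed above the middle of the 10. *egr* and *Ets21C* passed the filter on low values only through RasV12 libraries. *Jra*, *Ets21C* and *p38a* are among the stress genes that the study itself picked from these libraries, so their count is not independent evidence. The study picked them with DESeq at an unadjusted p under 0.05. The false discovery rate that it gave was above 0.05 for *Jra* and *p38a* and below it for *Ets21C*.

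**Figure D1:**
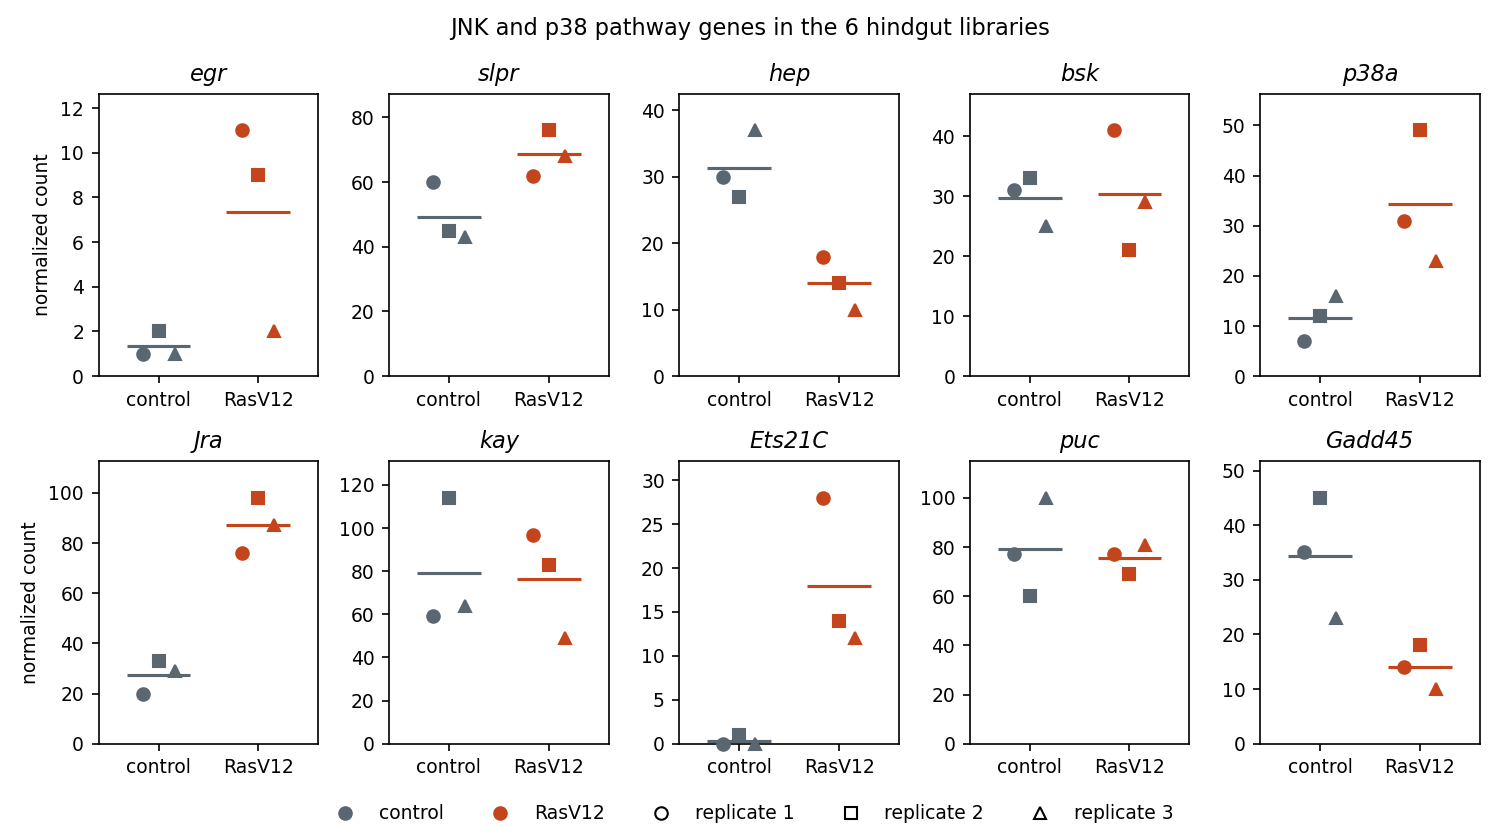
Normalized counts (linear axis from 0, a scale of its own in each panel) of the 10 JNK and p38 genes in the 3 control and 3 RasV12 libraries, with 1 symbol per replicate and a bar at the group mean. The groups stand apart for *p38a*, *Jra* and *Ets21C*, narrowly for *slpr*, and in the other direction for *hep* and *Gadd45*, while *bsk*, *kay* and *puc* overlap.

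In control hindguts the ligand gene *egr* (FBgn0033483) was close to absent, with normalized counts of 1, 2 and 1. In RasV12 replicates 1, 2 and 3 it had 11, 9 and 2. The first pair of RasV12 libraries lay above every control library, but the third was level with the highest control. The sum of the RasV12 values over that of control, scaled by library totals, was 5.27 (95% exact interval 1.79 to 21.0, with the scaled values taken as counts and for counting error only). Limma gave a log2 fold change of 1.64 (95% interval −0.18 to 3.45, adjusted p = 0.213), so a change of *egr* was not established at this depth. In BDGP6.54 *egr* spans 10078366 to 10084210 of chromosome 2R, 12269 bases from *Jra* and on the same strand.

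Of the receptors and adaptors, *grnd*, which encodes the Eiger receptor Grindelwald, had 25, 20 and 16 in control libraries against 38, 42 and 55 in RasV12 libraries. It rose by 1.11 on the log2 scale (standard error 0.35, limma's adjusted p = 0.0458). With a library left out the call held only without control replicate 1, and the adjusted p reached 0.178 without RasV12 replicate 3. The other Eiger receptor gene, *wgn*, did not pass the test, with 20, 24 and 13 in control and 5, 7 and 23 in RasV12 hindguts (limma's adjusted p = 0.309). The adaptor *Traf6* had a mean of 16.7 in either genotype, and *Traf4*, at 4 or below in every library, was too low to test.

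No gene of the kinase chain passed the test. *slpr* (FBgn0030018), the mixed-lineage kinase that activates Hemipterous, had control values of 60, 45 and 43 and RasV12 values of 62, 76 and 68. All RasV12 values exceeded all control values, although the gap was only 2, and the log2 fold change of 0.48 (95% interval −0.15 to 1.11) did not pass the test (limma's adjusted p = 0.29). An annotated gene on the same strand, *CG2278*, covers part of the 3′ UTR of *slpr* but did not exceed 5 in any library.

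*hep* (FBgn0010303) encodes Hemipterous, the kinase that phosphorylates Basket. The control libraries had 30, 27 and 37 and the RasV12 libraries 18, 14 and 10. The groups did not overlap, with a mean of 31.3 ± 5.13 in control and 14.0 ± 4.00 in RasV12 (SD, n = 3 each). Its log2 fold change was −1.13 (95% interval −1.98 to −0.28, limma's adjusted p = 0.0672). It stayed above 0.05 under all 17 alternatives of scaling, filter, model and left-out library, between 0.0551 and 0.205. *lic*, the p38-activating kinase whose gene starts 710 bases away on the other strand of chromosome X, had 14, 20 and 16 against 21, 10 and 10 (limma's adjusted p = 0.667).

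*bsk* (FBgn0000229), the JNK itself, had 31, 33 and 25 in control and 41, 21 and 29 in RasV12 hindguts. The groups overlapped fully. Its log2 fold change of −0.01 had a 95% interval from −0.80 to 0.78, so changes within that range remain possible at this depth. That range is not the size needed to pass the test: with the same standard error of 0.37, *msn*, given below, did not pass at 1.00. These values measure transcripts and say nothing of the phosphorylated kinase.

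None of the 9 upstream kinase genes outside the 10 (*msn*, *hppy*, *Tak1*, *Tab2*, *wnd*, *Ask1*, *Mekk1*, *Mkk4* and *lic*) passed the test by limma or limma-voom. At an unadjusted p under 0.05, 2 of them were higher, where 16% of all genes tested were. *msn*, a Ste20-type kinase at the top of the JNK chain, had 28, 28 and 41 in control and 91, 76 and 39 in RasV12 hindguts (1.00 on the log2 scale, limma's adjusted p = 0.0809), and passed without control replicate 3 and without RasV12 replicate 3. *Ask1*, which feeds both JNK and p38, had 25, 29 and 32 against 43, 50 and 63 (0.83 on the log2 scale, limma's adjusted p = 0.102). The list's median was 0.25. Among the scaffolds, GTPases and Src kinases 9 of 10 were tested and 0 passed by limma or limma-voom. Beside 16% of all genes tested, 2 of the 9 were higher at an unadjusted p under 0.05. These were *Cdc42* (0.76 on the log2 scale, limma's adjusted p = 0.124), which passed without RasV12 replicate 3, and *Rac2* (0.60, limma's adjusted p = 0.163). *Rac1*, a GTPase of the actin cytoskeleton that can act above JNK, had 66, 54 and 92 in control and 110, 93 and 61 in RasV12 hindguts (0.31 on the log2 scale, limma's adjusted p = 0.554). *Aplip1* was listed at 0 in every library.

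Of the AP-1 partners *Jra* rose and *kay* did not pass the test. *Jra* (FBgn0001291), the Jun subunit, was at 20, 33 and 29 in the control libraries and at 76, 98 and 87 in the RasV12 libraries. Every RasV12 library was more than double the highest control library. Its mean went from 27.3 ± 6.66 to 87.0 ± 11.0 (SD, n = 3 each), and its log2 fold change of 1.66 (standard error 0.31, 95% interval 0.98 to 2.33) had a limma adjusted p of 0.00275. It was the only one of the 10 genes that passed under every alternative run, with log2 fold changes between 1.45 and 1.80 when a library was left out and an adjusted p of at most 0.0256. *Jra* spans 10096480 to 10098556 of chromosome 2R, and *RpLP0-like* on the opposite strand covers part of its 3′ UTR. *RpLP0-like* had 103, 89 and 76 in control and 104, 97 and 65 in RasV12 hindguts (−0.03 on the log2 scale, limma's adjusted p = 0.958), so it did not move with *Jra*.

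*kay* (FBgn0001297), the Fos subunit, had 59, 114 and 64 in control and 97, 83 and 49 in RasV12 hindguts. The groups overlapped, and the widest spread was within the control. Limma gave −0.04 on the log2 scale (95% interval −0.78 to 0.70, adjusted p = 0.951). Taken within each library, where the scaling cancels, the ratio of *Jra* to *kay* was 0.339, 0.289 and 0.453 in control and 0.784, 1.18 and 1.78 in RasV12 hindguts. The groups did not overlap, and the geometric mean of the ratio was 3.33-fold higher in RasV12. The exact two-sided permutation p was 0.1, the smallest that 3 libraries against 3 can give, and it was also 0.1 when adjusted over the 3 ratios computed. All 3 ratios, here and below, were chosen after the values had been seen, so the adjustment does not cover the pairs not chosen.

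*Ets21C* (FBgn0005660) encodes an ETS-type transcription factor that acts with AP-1 and is itself turned on by JNK in stressed fly tissue. It had the highest fold change of the 10 genes. The control libraries had 0, 1 and 0 normalized counts and the RasV12 libraries 28, 14 and 12. No RasV12 library came near the control range, and replicate 1 had double the value of replicate 2. The ratio of the summed values was 51.7 (95% exact interval 8.90 to 2080, for counting error only), which the single control count leaves very wide. Limma's log2 fold change was 3.82 (standard error 0.75, adjusted p = 0.0035). Without RasV12 replicate 1 it was 3.47 and the adjusted p 0.0575. The gene spans 544925 to 552923 of chromosome 2L. *nAChRbeta3* on the opposite strand covers part of its 3′ UTR, and it had 1, 8 and 4 in control and 1, 1 and 2 in RasV12 hindguts, overlapping values that were too low to test.

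Of the other stress transcription factors, *Atf3* (28, 48 and 80 against 73, 67 and 76) did not pass the test (limma's adjusted p = 0.303), and *Atf-2*, at 3 or below, was too low for it. *foxo*, a factor that JNK is known to activate and insulin signalling to restrain, fell from 45, 62 and 40 to 16, 11 and 25 (−1.50 on the log2 scale, limma's adjusted p = 0.0193). Its call was lost without control replicate 2 (0.0782), RasV12 replicate 1 (0.0583) or RasV12 replicate 2 (0.0871), and without a variance trend (0.0535).

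**Figure D2:**
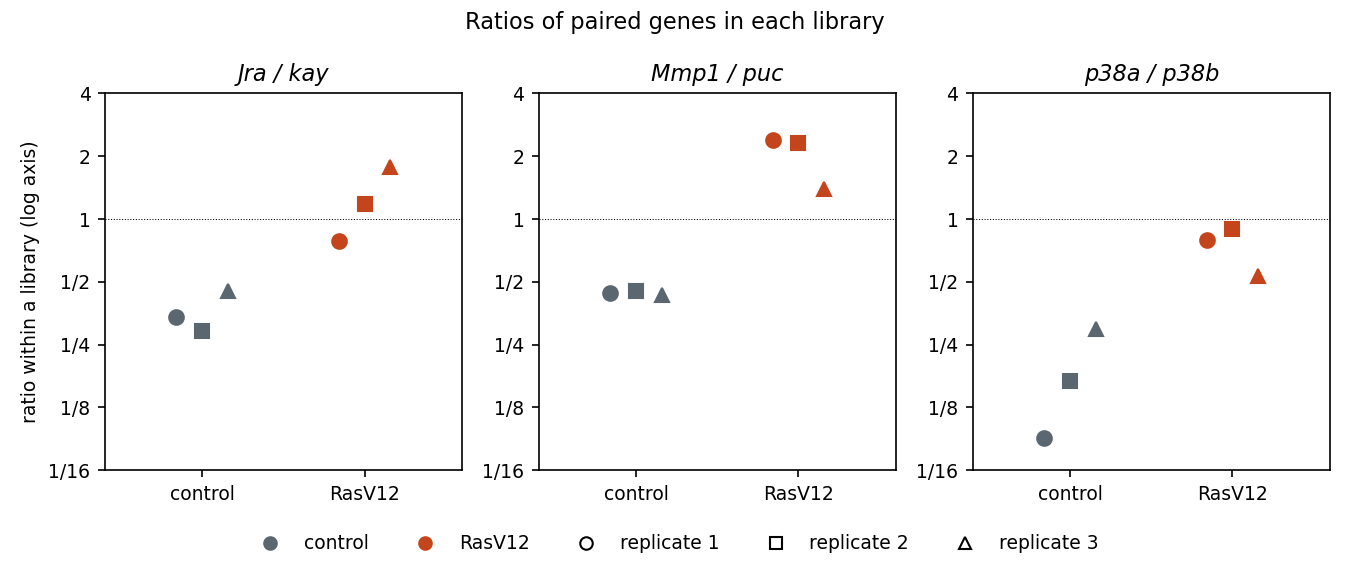
Ratio of *Jra* to *kay*, of *Mmp1* to *puc* and of *p38a* to *p38b* within each library (log axis, 1 symbol per replicate, no unit). In all 3 panels every RasV12 library lies above every control library, and the control libraries lie closest together for *Mmp1* to *puc*, between 0.430 and 0.450.

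Of the other JNK targets among the 10 genes neither passed the test. *puc* (FBgn0243512), the feedback phosphatase and a standard reporter of JNK activity in flies, had values of 77, 60 and 100 in control libraries and 77, 69 and 81 in RasV12 libraries. All RasV12 values lay within the control range. The log2 fold change was −0.03 with a 95% interval from −0.65 to 0.58 (limma's adjusted p = 0.951), and between −0.21 and 0.15 with a library left out.

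*Gadd45* (FBgn0033153), a stress gene induced by JNK in several fly tissues, had 35, 45 and 23 in control and 14, 18 and 10 in RasV12 hindguts. The groups did not overlap, and the means were 34.3 ± 11.0 and 14.0 ± 4.00 (SD, n = 3 each). Its log2 fold change of −1.22 (95% interval −2.11 to −0.33) had a limma adjusted p of 0.0592. It passed without control replicate 3 (−1.48, adjusted p = 0.0286) and with upper-quartile scaling (adjusted p = 0.0478). *hep*, *Gadd45* and *foxo* were lower in the RasV12 libraries. In the same libraries the visceral muscle markers, the hindgut markers *byn*, *fkh* and *otp* and the yolk genes *Yp1* and *Yp2* given above were lower. The part of the cells that express these markers in the values of *hep*, *Gadd45* and *foxo* was not tested. Of the 10 genes, 4 had groups that did not overlap in the higher and 2 in the lower direction, against 17.7% and 15.3% of all genes tested.

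Of the 12 reported JNK targets outside the 10, 6 could be tested, 4 rose and 0 fell, where 9.04% of all genes tested were called higher and 7.7% lower. None was called lower by limma or limma-voom, and 1, *hid*, was lower at an unadjusted p under 0.05, where 14% of all genes tested were. Of the 4 that rose, *upd3* and *Rab30* passed the filter on low values only through RasV12 libraries. *hid*, which did not rise, passed it only through control libraries. *Mmp1* and *Rab30* are among the genes that the study itself picked from these libraries, so the count of 4 is not independent evidence. *Mmp1*, a matrix metalloprotease that cuts basement membrane, rose from 34, 27 and 43 to 184, 160 and 113, and stayed called under every alternative with an adjusted p of at most 0.0134. Unlike *puc*, it went far outside the control range. Within a library the ratio of *Mmp1* to *puc* was 0.442, 0.450 and 0.430 in control and 2.39, 2.32 and 1.40 in RasV12 hindguts, 4.49-fold higher by geometric mean (exact two-sided permutation p = 0.1, the smallest possible, and 0.1 adjusted over 3 ratios). This pair, too, was chosen after its values had been seen.

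*upd3*, a cytokine gene of the JAK/STAT pathway that JNK turns on in damaged gut, was listed at 0 in all 3 control libraries and had 14, 26 and 12 in RasV12 hindguts. Set against a floor of 3 per library it was at least 5.78-fold higher (limma's adjusted p = 0.0025), and without RasV12 replicate 2 its adjusted p was 0.0532. Its neighbours on chromosome X, *upd1* and *upd2*, stayed at 3 or below. Hemocytes also express *upd3*. Of their markers given above, *NimC1*, *He* and *eater* were at 0 and *crq* was present in both genotypes, and their part in *upd3* was not tested. *Rab30*, a small GTPase gene that the study also listed from these libraries, had 3, 3 and 4 in control and 21, 14 and 10 in RasV12 hindguts (1.83 on the log2 scale, limma's adjusted p = 0.0421). With a library left out it stayed called only without control replicate 3, with an adjusted p of up to 0.185 without RasV12 replicate 1. *NLaz*, a lipocalin linked to stress resistance, rose least, from 353, 299 and 260 to 443, 445 and 573 (0.68 on the log2 scale, limma's adjusted p = 0.0499), and with a library left out stayed called only without control replicate 1, with an adjusted p of up to 0.183 without RasV12 replicate 3. It also passed with TMM or RLE factors, a pseudocount of 0.5 or a filter of at least 10 in 3 libraries, but in no other alternative that kept all 6 libraries.

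Neither of the cell death genes among the targets was called. *hid* had 4, 10 and 15 in control and 1, 5 and 1 in RasV12 hindguts (−1.73 on the log2 scale, limma's adjusted p = 0.152), and *rpr* was listed at 0 in 5 libraries and at 1 in RasV12 replicate 3. *Ilp8*, a relaxin-like hormone gene that damaged larval tissues turn on, was listed at 0 in all 6. *cher* (21, 44 and 60 against 85, 58 and 47) did not pass (limma's adjusted p = 0.28). *scaf*, at 7 or below, and *Hsp68*, with 1, 0 and 0 against 1, 5 and 7, were too low to test.

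In the p38 branch, *p38a* (FBgn0015765) was at 7, 12 and 16 in the control and at 31, 49 and 23 in the RasV12 libraries. The groups did not overlap, and RasV12 replicate 2 was more than double replicate 3. The mean went from 11.7 ± 4.51 to 34.3 ± 13.3 (SD, n = 3 each). On the log2 scale it rose by 1.48 (standard error 0.45, 95% interval 0.51 to 2.45, limma's adjusted p = 0.0374). This call was less stable than that of *Jra*. It was lost without control replicate 1 (adjusted p = 0.101), control replicate 2 (0.0676), RasV12 replicate 1 (0.1) or RasV12 replicate 2 (0.186), without a variance trend (0.0708) and with no filter on low values (0.0619).

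*p38c*, a p38 paralogue that in the fly gut has been tied to lipid metabolism and to *Duox*, lies 212 bases from *p38a* on the same strand of chromosome 3R, just past its 3′ end. It had 1, 2 and 0 in control and 13, 7 and 10 in RasV12 hindguts. The ratio of the summed values was 9.58 (95% exact interval 2.98 to 49.1, for counting error only), and limma's adjusted p was 0.0391. It passed in none of the 6 fits with a library left out, with adjusted p from 0.0507 without control replicate 2 to 0.176 without RasV12 replicate 1. Whether reads past the end of *p38a* were counted for *p38c* was not tested. *p38b*, the third paralogue, on chromosome 2L, had 79, 72 and 54 in control and 39, 55 and 43 in RasV12 hindguts (log2 fold change −0.57, 95% interval −1.22 to 0.08, limma's adjusted p = 0.228).

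Within a library the ratio of *p38a* to *p38b* was 0.0886, 0.167 and 0.296 in control and 0.795, 0.891 and 0.535 in RasV12 hindguts. The groups did not overlap, and its geometric mean was 4.42-fold higher in RasV12 (exact two-sided permutation p = 0.1, the smallest possible, and 0.1 adjusted over 3 ratios). As with the other ratios, the pair was chosen after its values had been seen. *Duox*, the oxidase gene that p38 signalling is known to induce in the fly gut, had 0, 1 and 0 against 16, 6 and 4. It did not pass the test (limma's adjusted p = 0.0572, but called without a variance trend and with no filter on low values), and the ratio of its summed values was 24.9 (95% exact interval 4.09 to 1021, for counting error only). *Mef2*, a p38 substrate and a muscle factor, had 44, 65 and 75 against 31, 32 and 45 (limma's adjusted p = 0.15). The muscle markers were lower in the same libraries, and the part of muscle in its values was not tested.

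The 3 phosphatases of MAP kinases outside the 10 did not pass by limma or limma-voom. At an unadjusted p under 0.05, 1 of them, *Mkp3*, was higher, where 16% of all genes tested were. *Mkp3*, which acts on the ERK kinase below Ras, had 3, 14 and 21 in control and 30, 25 and 24 in RasV12 hindguts (1.31 on the log2 scale, limma's adjusted p = 0.142), and passed without control replicate 3. Over all 46 genes of the pathway lists outside the 10, 37 were tested, 6 were called higher and 1 lower, beside 9.04% and 7.7% of all genes tested. *upd3*, *Rab30*, *p38c* and *Duox* passed the filter on low values only through RasV12 libraries, *hid* and *MKP-4* only through control libraries. The 6 were *grnd*, *Mmp1*, *upd3*, *Rab30*, *NLaz* and *p38c*, and the 1 was *foxo*. Since the study itself picked *Mmp1* and *Rab30* from these libraries, the count of 6 is not independent evidence. Without RasV12 replicate 2 the only call left among the 46 was *Mmp1*. The number called higher was 2 without control replicate 2 and without RasV12 replicate 1, and in both fits *foxo* lost its call.

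**Figure D3:**
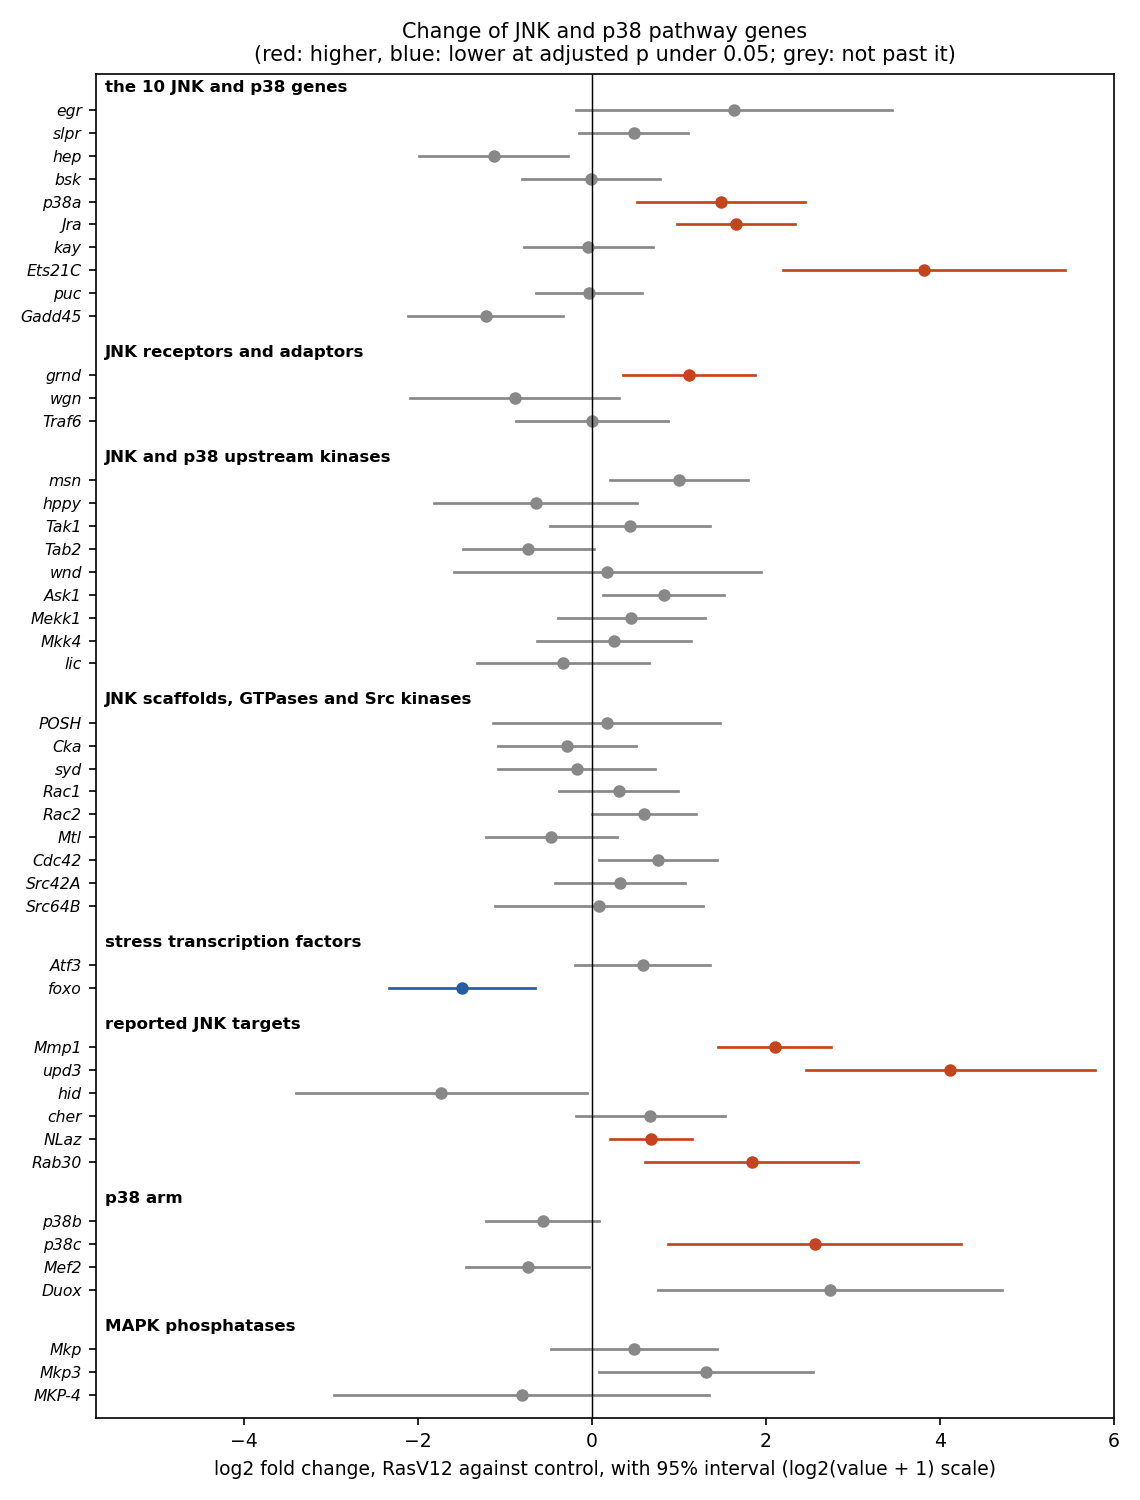
Log2 fold change of RasV12 against control on the log2(value + 1) scale, with its 95% interval from limma, for the 10 JNK and p38 genes and the tested genes of the other pathway lists except 1 that is not shown, grouped by role. The 9 genes called higher at an adjusted p under 0.05 are red, *foxo* is blue, and the upstream kinases, the scaffold and GTPase genes and the phosphatases are all grey.

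Left-out libraries changed the calls of 3 of the 10 genes. *Jra* passed in all 6 such fits, *Ets21C* in 5 and *p38a* in 2, while *Gadd45* passed in 1. The direction of *bsk*, *kay* and *puc*, whose log2 fold changes lay near 0, turned with the library left out.

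**Figure D4:**
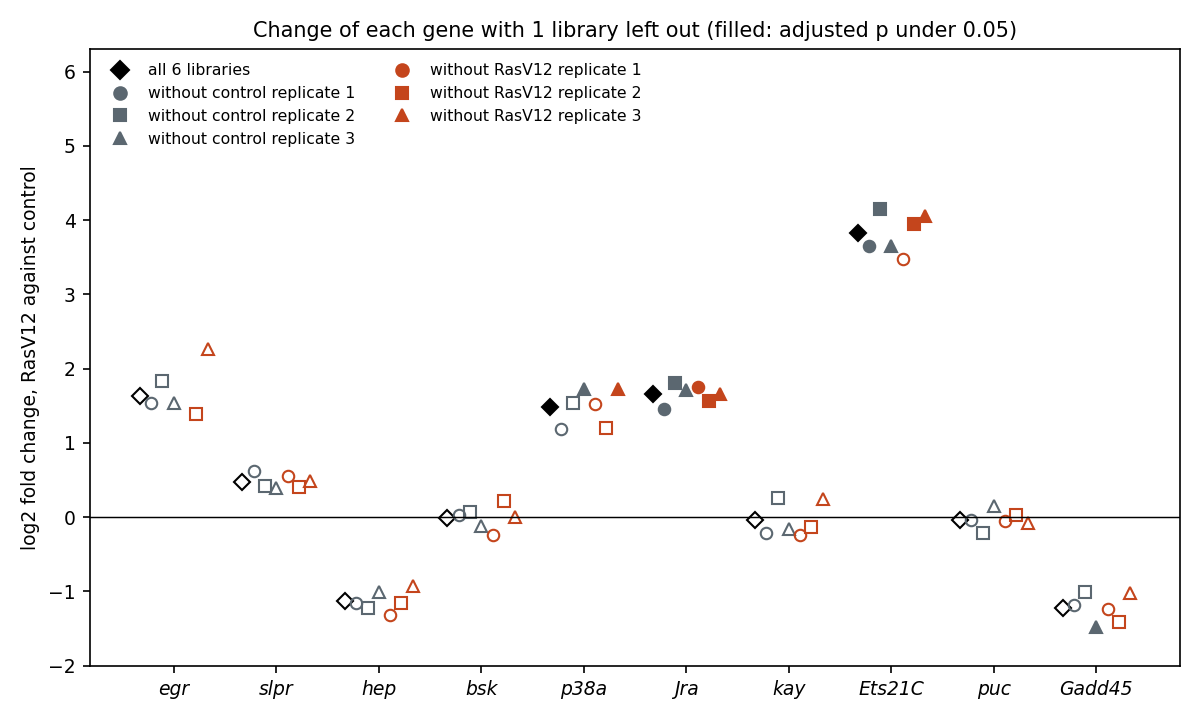
Log2 fold change of the 10 genes with all 6 libraries (black) and with 1 library left out (grey for a control, red for a RasV12 library, 1 symbol per replicate), filled where limma's adjusted p is under 0.05. *Jra* is filled throughout, *p38a* only with all libraries and in 2 of the 6 other fits, and *egr* without RasV12 replicate 1 has no point because its values were too low to be tested.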

How the data were processed

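RNA of control and RasV12 hindguts was sequenced with QuantSeq 3′ libraries on an Ion Proton. The authors aligned the reads to dm6 with hisat2, then the unmapped reads with bowtie2, and analysed them through metaseqR2 with the DESeq algorithm and its utr setting, after filters on genes by their reads; versions and the use of strand in counting are not given in the sources used here. Each deposited value is a signal: the reads of 1 gene in 1 library, scaled per library and rounded to a whole number by the authors. They are called normalized counts in the text. Raw reads could not be recovered exactly where the factor was below 1, so no count model was run.

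All 6 libraries were grouped by the labelled genotype. Linear models of log2(value + 1) with a variance trend came from limma 3.58.1 (R 4.3.3), and p-values were two-sided and Benjamini-Hochberg adjusted. Of 11086 genes with a value, those above the median value of 9 in at least 1 library were tested (7155). Ratios of low genes used an exact binomial interval on the summed values, taken as counts. Positions and names came from Ensembl 115 on BDGP6.54, in dm6 coordinates, which named 17520 of 17617 identifiers. Alternatives were other scalings (TMM, RLE, upper quartile, totals), limma-voom, no variance trend, other pseudocounts and filters, a replicate block and each library left out. All 10 genes are named, as is every called gene of the other pathway lists; other genes and the ratios were chosen with values in view. The genes and lists were chosen with earlier results of these data known. Within a genotype the log2 values of libraries correlated across genes at 0.832 to 0.918, so none is a copy of another. The values of 1 tested gene are not reported here. No sequence is shown. Figures used matplotlib 3.10.9.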

Additional observations from a re-analysis of the deposited data

How the results depend on the processing

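With all 6 libraries 647 genes were called higher and 551 lower. Without a variance trend these were 427 and 277, 2 of the 10 JNK and p38 genes were called, and 0 of the 46 other pathway genes were called lower. With limma-voom, and likewise with a block for the replicate number, 2 of the 46 were called higher instead of 6, and *grnd*, *NLaz*, *Rab30* and *p38c* lost their calls. The replicate numbers are shared only as numbers: the deviations of same-numbered libraries correlated at −0.0464, 0.00408 and −0.0122 across genes. The block changed no call among the 10 genes. Upper-quartile factors added 1 call lower among them, *Gadd45*, and with these factors or library totals *grnd* and *NLaz* lost their calls, leaving 4 of the 46 higher. With no filter *p38a*, *grnd*, *NLaz* and *Rab30* lost theirs and *Duox* gained one, which also leaves 4. With a library left out, genes called higher ranged from 352 to 692 and lower from 290 to 600, the 10 genes had 1 to 3 calls higher and 0 to 1 lower, and the 46 had 1 to 5 higher and 0 to 1 lower. In these fits the log2 fold change turned its sign for *bsk* (−0.25 to 0.22), *kay* (−0.24 to 0.25) and *puc* (−0.21 to 0.15), none of them called. The scaling alternatives moved the median of all genes to −0.04 at most, from 0.02. Depth limits what can be said of *egr*, *Ets21C*, *upd3*, *p38c* and *Duox*, whose control values were 2 or below. *p38c* could not be tested with at least 10 in 3 libraries, and *egr* neither there nor without RasV12 replicate 1. Count models on recovered reads were not run.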

Other observations

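The families of the factors described above were looked at beside them. Of 12 other bZIP genes 10 were tested, 1 rose and 3 fell, where 9.04% of all genes tested were called higher and 7.7% lower, and the median log2 fold change was −0.72. *Xrp1*, a stress factor known from cell competition and DNA damage, rose from 208, 287 and 257 normalized counts in control to 485, 651 and 456 in RasV12 hindguts (1.07 on the log2 scale, limma's adjusted p = 0.00588). Its dimer partner *Irbp18* had 31, 11 and 8 against 18, 25 and 42 and did not pass (limma's adjusted p = 0.281). *maf-S*, the small Maf partner of the oxidative stress factor CncC, fell from 90, 80 and 95 to 33, 33 and 26 (−1.50 on the log2 scale, limma's adjusted p = 0.00322). *cnc* itself had 266, 128 and 127 against 91, 77 and 107, without overlap, and an adjusted p of 0.0864 by limma, and it passed without control replicate 3. *Pdp1* fell from 254, 273 and 344 to 145, 133 and 110 (−1.16 on the log2 scale, limma's adjusted p = 0.00449). *REPTOR-BP*, a partner of the TOR-regulated factor REPTOR, fell from 98, 126 and 92 to 46, 62 and 39 (limma's adjusted p = 0.0209), and lost its call without control replicate 2 (0.0831), RasV12 replicate 1 (0.061) or RasV12 replicate 3 (0.0789). Without a variance trend *Xrp1* (0.0705), *Pdp1* (0.0526) and *REPTOR-BP* (0.0724) did not pass, while *maf-S* stayed called under all alternatives. *Pdp1* is also a muscle factor, and the muscle markers were lower in the same libraries, as were the hindgut markers *byn*, *fkh* and *otp*. The part of these cells in its values was not tested.

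Of 7 other ETS genes 4 were tested and 0 passed by limma or limma-voom. At an unadjusted p under 0.05, 0 were called, where 16% of all genes tested were higher and 14% lower. *Ets98B*, the only one of the 4 whose groups did not overlap, had 41, 52 and 54 in control and 110, 68 and 57 in RasV12 hindguts (limma's adjusted p = 0.213). *pnt*, a nuclear target of Ras signalling, had 4, 0 and 0 against 7, 3 and 8 and was too low to test, and *aop*, the repressor that opposes it, had 25, 16 and 19 against 23, 34 and 20 (limma's adjusted p = 0.612).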
